A study of Mus musculus with 8 samples.

Results

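The 32 genes described here are transcripts of the liver's macrophages: markers of resident Kupffer cells, markers of monocytes recruited from blood, and genes that both cell kinds share. They were chosen as a fixed list of symbols, all 32 of which were found among the 55487 genes of the deposited table, and 31 of them had enough reads to be tested. The data are bulk RNA sequencing of whole liver from 2 groups of mice, all C57Bl/6J males aged about 10 weeks. The control group of 4 libraries came from mice gavaged with water, and the sorbate group of 4 libraries from mice gavaged with 17 mg of potassium sorbate, a food preservative derived from a short fatty acid. All livers were taken 4 hours after the gavage, and no genetic change or other agent is given for either group. The title of the series links sorbate to the expression of inflammation genes. Whether the libraries of a group are separate animals is not in the labels, so the p-values refer to the spread among libraries, part of which may be technical.

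Kupffer cells are the resident macrophages of the liver. They sit in the sinusoids, the liver's capillaries, where they take up bacteria, worn-out red cells and other particles from the blood, and they renew themselves with little input from the bone marrow. When the liver is injured or inflamed, circulating monocytes enter through the chemokine receptor CCR2 and become macrophages that at first lack the resident markers. In a mixed pool of RNA the resident and the recruited markers can be read side by side, although in bulk samples fewer cells of a type and less RNA per cell cannot be told apart.

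Total counts ran from 15773932 to 25844731 per library. On the first principal component of all genes the sorbate libraries scored 21.9 to 37.8 and controls 1, 3 and 4 scored -49.1 to -42.1, whereas control 2, a library labelled as water control, scored 15.4. Counts of called genes are therefore given for all 8 libraries and, where they change, without control 2. Control 2 was set apart because it lay near the sorbate libraries. Leaving it out therefore tends to widen the differences between groups, and the counts without it are no independent support.

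Sorbate-treated livers carried less RNA of 10 of the 31 macrophage genes tested and more of none. The 10 were the resident markers Timd4, Vsig4, Cd163, Cd5l and Folr2, the monocyte marker Plac8, the lineage genes Csf1r and Mpeg1, the signalling adaptor Tyrobp and the scavenger receptor Msr1. Among all 13312 genes tested, 6.3% were called lower and 6.14% higher (edgeR's quasi-likelihood test, Benjamini-Hochberg adjusted p under 0.05). All 31 genes had a log2 fold change below 0, as had 52.2% of all genes, and their median was -0.86, from -1.39 for Plac8 to -0.34 for Ccr2, against a median of -0.02 over all genes. The direction was thus shared by the list, while 21 of the 31 genes did not pass the adjusted threshold and 25 had an unadjusted p under 0.05. In 3 genes, Timd4, Mpeg1 and Msr1, every sorbate library lay below every control library, as it did in 8.32% of all genes.

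**Figure D1:**
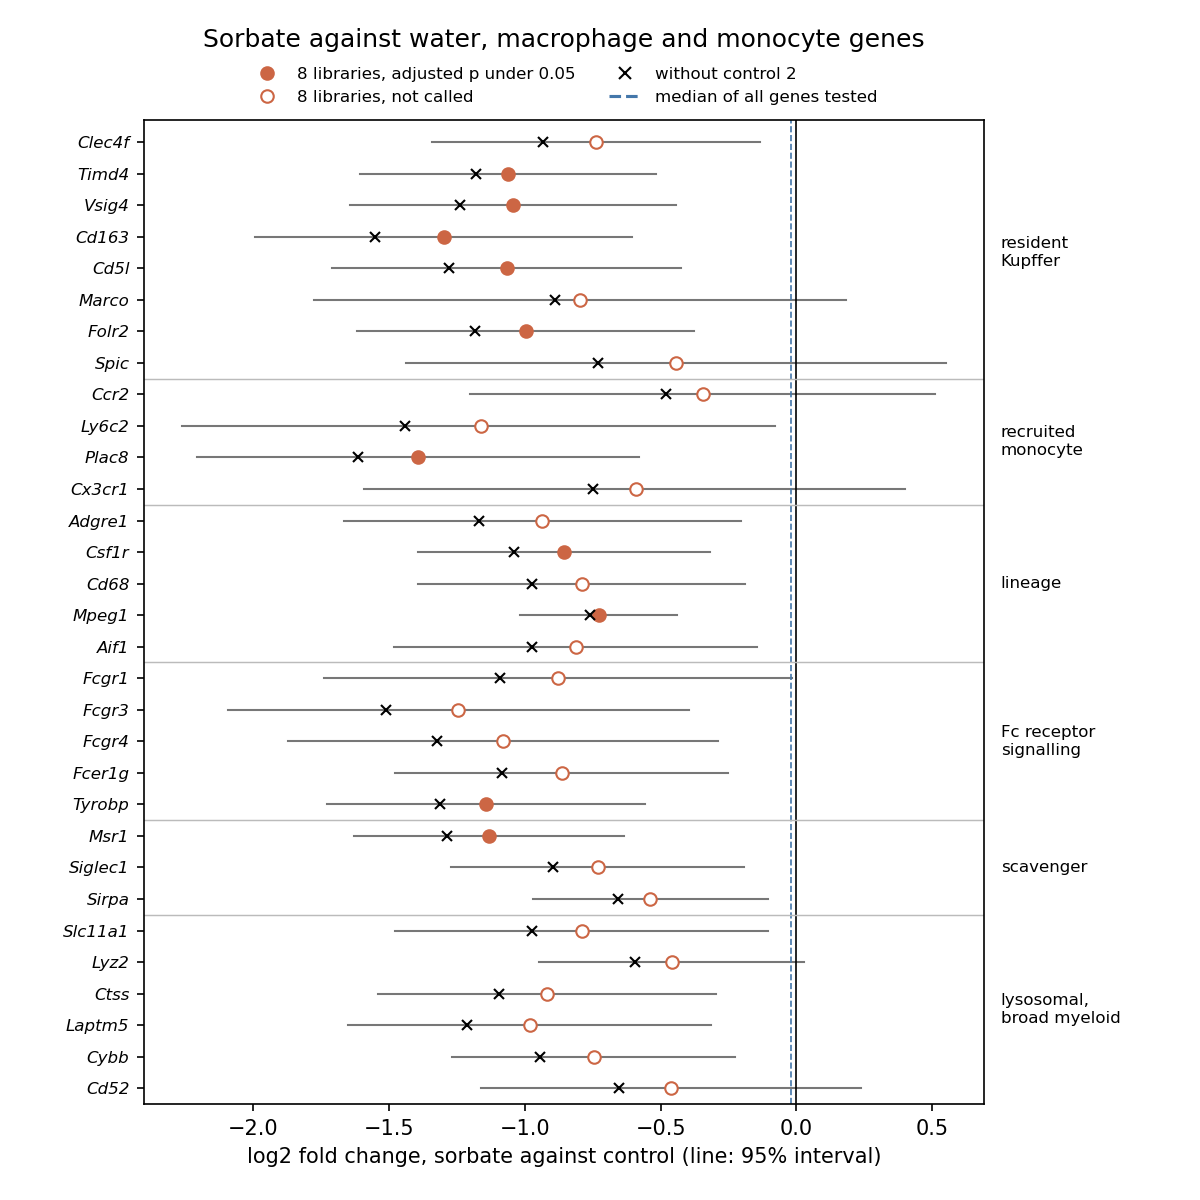
Log2 fold change of each of the 31 tested genes, sorbate against water, grouped by role, with the 95% interval as a line. Filled circles passed the adjusted threshold and open circles did not, crosses give the value without control 2, and the dashed line is the median of all genes tested at -0.02. All circles lie to the left of 0, and the crosses lie further left than the circles in all 31 genes. Control 2 was the lowest control in each of these genes, so its removal by itself moves the crosses left.

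The number of genes called depended on single libraries, and most on control 2. That library had the lowest level of the 4 controls in 31 of the 31 tested genes, as it had in 33.8% of all genes, and in 27 it lay within the range of the sorbate libraries (47.6% of all genes). Relative to the mean of the other 3 controls its level differed by a median of -1.06 on the log2 scale over the 31 genes, from -2.16 for Spic to -0.18 for Mpeg1, where the median of all genes was -0.01. Without control 2 the test called 26 of the 31 genes lower and 0 higher, among 14.1% of all genes called lower and 15.1% called higher, and the 5 not called were Marco, Spic, Ccr2, Cx3cr1 and Cd52. Every sorbate library lay below controls 1, 3 and 4 in 26 of the 31 genes, as it did in 18.6% of all genes. Leaving out another library lowered or raised the number of genes called lower: it was 3 without control 1 (3.64% of all genes called lower), 2 without control 3 (2.64%), 2 without control 4 (3%), 2 without sorbate 1 (3.15%), 12 without sorbate 2 (4.23%), 2 without sorbate 3 (2.73%) and 2 without sorbate 4 (2.7%). Mpeg1 and Msr1 were called in each of these 8 fits. The calls of Timd4, Vsig4, Cd163, Cd5l, Folr2, Plac8 and Csf1r held only without control 2 or sorbate 2, and that of Tyrobp also without control 1.

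The count also moved with the method. It was 7 when libraries were scaled by size alone (4.13% of all genes called lower), 18 with no filter on low counts (4.08%), 20 with DESeq2 (8.35%) and 26 with limma-voom and sample quality weights (14.6%). With 1 surrogate variable, a covariate estimated from the counts themselves, it was 1, Mpeg1 (2.26%), and at an adjusted threshold of 0.1 it was 20 (10.6%). No macrophage gene was called higher under any of these settings.

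**Figure D2:**
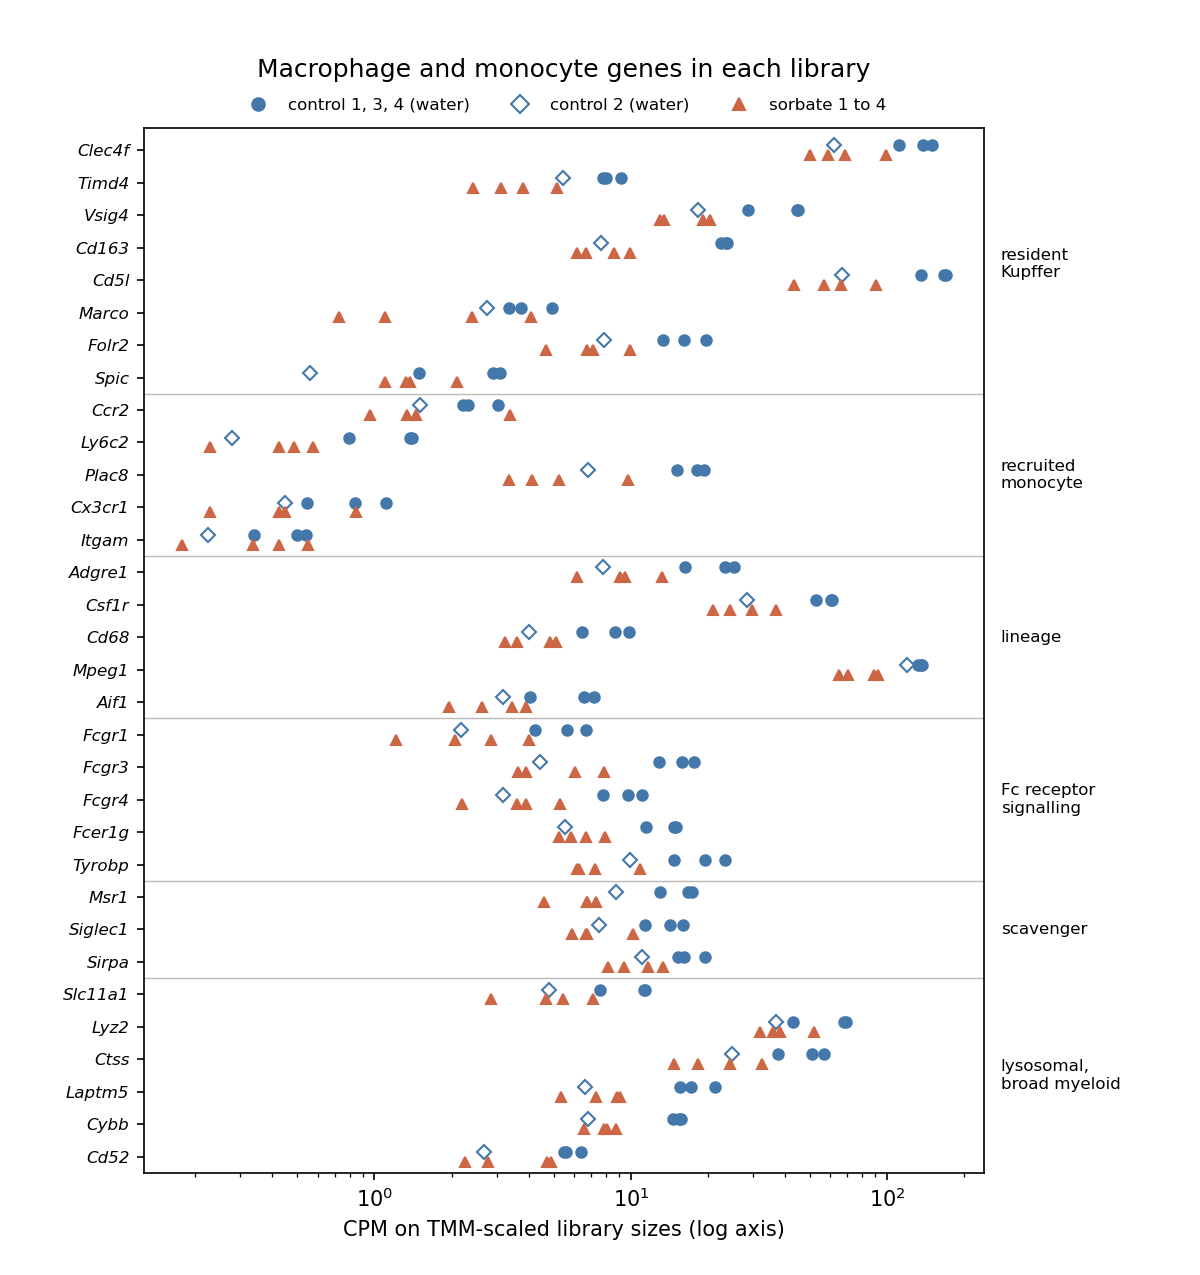
Level of each of the 32 genes in each library, in CPM (counts scaled to a common library size) on a log axis, grouped by role. Filled circles are controls 1, 3 and 4, the open diamond is control 2 and triangles are the sorbate libraries. In most genes the diamond lies among the triangles, whereas in Mpeg1 it lies with the other controls, at 119 CPM against 64.7 to 91.7 with sorbate.

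The libraries kept much the same order from gene to gene. Among the sorbate libraries, sorbate 2 was highest in 26 of the 31 genes and sorbate 4 lowest in 24. Among the controls, control 3 was highest in 17 and control 4 in 11. The summed level of all 32 genes was 778, 478, 971 and 956 CPM in controls 1 to 4 and 412, 583, 438 and 327 CPM in sorbate 1 to 4. Control 2 thus lay within the sorbate range and sorbate 2 above control 2. The spread between controls, as the SD relative to the mean, had a median of 35.4% over the 31 genes with all 4 controls and of 16.9% without control 2. Mpeg1 varied least among the controls, by 6.20%, and Spic most, by 59.8%.

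The resident markers are genes that mature Kupffer cells switch on in the liver and that fresh monocytes lack. Of the 8, 5 fell with sorbate (median log2 fold change -1.02), and 6 were called without control 2. For this and the later counts by role, the shares of all genes called lower were 6.3%, and 14.1% without control 2. Per kilobase of exon, Cd5l had the highest level of all 32 genes in the controls at 66.0 CPM per kb, followed by Clec4f at 46.5, both of them resident markers.

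Clec4f, a lectin receptor found in mice almost solely on Kupffer cells, had 111, 61.9, 149 and 138 CPM in controls 1 to 4 and 58.6, 98.8, 68.3 and 49.8 CPM in sorbate 1 to 4. Control 2 lay inside the sorbate range and sorbate 2 above control 2. Its log2 fold change of -0.74 (SE 0.27) did not pass the test (adjusted p = 0.102). Without control 2 it was -0.93 with an adjusted p of 0.00522. With all 8 libraries DESeq2 called it (adjusted p = 0.0476), as did limma-voom with quality weights (0.0061), so that its call turned with the method as well as with control 2. Over all alternatives the adjusted p ran from 0.00522 to 0.686.

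Timd4, a receptor for phosphatidylserine on dying cells that marks long-resident Kupffer cells, had 7.82, 5.42, 9.14 and 7.97 CPM in the controls and 3.81, 5.16, 2.42 and 3.10 CPM after sorbate. The groups did not overlap, although control 2 and sorbate 2 lay close together. Timd4 fell by 1.06 on the log2 scale (SE 0.25, adjusted p = 0.021). It is ENSMUSG00000055546 on chromosome 11, 46810800 to 46844332 (GRCm38).

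Vsig4, a complement receptor with which Kupffer cells catch circulating bacteria, had 28.5, 18.3, 44.4 and 45.0 CPM in the controls and 13.01, 20.4, 19.2 and 13.5 CPM after sorbate. Sorbate 2 and sorbate 3 lay above control 2 and below the other controls. It fell by 1.04 on the log2 scale (SE 0.27, adjusted p = 0.0326). Vsig4 is ENSMUSG00000044206 on chromosome X, 96247203 to 96293438.

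Cd163, which takes up haemoglobin bound to haptoglobin, showed the largest fall among the resident markers. Its level was 23.8, 7.65, 23.4 and 22.4 CPM in the controls and 6.69, 9.96, 8.60 and 6.15 CPM after sorbate. Controls 1, 3 and 4 were nearly equal and control 2 lay inside the sorbate range. Cd163 (ENSMUSG00000008845, chromosome 6, 124304656 to 124330527) fell by 1.30 on the log2 scale (SE 0.31, adjusted p = 0.0247), and by 1.55 without control 2.

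Cd5l, a secreted scavenger protein that macrophages supply to the blood, had 135, 66.9, 169 and 166 CPM in the controls and 56.7, 90.5, 66.0 and 43.4 CPM after sorbate. Control 2 again lay inside the sorbate range. Cd5l (ENSMUSG00000015854, chromosome 3, 87357881 to 87371073) fell by 1.07 on the log2 scale (SE 0.29, adjusted p = 0.0384). Folr2, a folate receptor of resident tissue macrophages, had 13.3, 7.88, 19.7 and 16.1 CPM in the controls and 6.76, 9.96, 7.09 and 4.68 CPM after sorbate. It fell by 1.00 on the log2 scale (SE 0.28, adjusted p = 0.0434). Reads of Folr2 could include those of the antisense gene Gm10602, which shares 474 exonic bases with it. Leaving out any 1 of controls 1, 3 and 4 or of sorbate 1, 3 and 4 ended the calls of the 5 resident markers, with highest adjusted p-values of 0.0716 for Timd4, 0.102 for Vsig4, 0.0788 for Cd163, 0.114 for Cd5l and 0.132 for Folr2.

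Marco, a scavenger receptor for bacteria, and Spic, the transcription factor of iron-recycling macrophages, were the resident markers farthest from the threshold. Marco had 3.73, 2.74, 3.34 and 4.92 CPM in the controls and 4.07, 2.40, 1.10 and 0.730 CPM after sorbate, so that sorbate 1 lay among the controls and the other sorbate libraries below them. Its log2 value differed by -0.80 (SE 0.44, adjusted p = 0.26). Spic had 1.49, 0.559, 2.90 and 3.10 CPM against 2.09, 1.38, 1.33 and 1.09 CPM, a difference of -0.44 on the log2 scale (SE 0.45, adjusted p = 0.543). Control 2 was the lowest library of all 8 for Spic, at 10 reads.

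The sequences just before the starts of 4 of the called resident markers are shown because these genes were called in the same direction, and because macrophage genes are often bound by the transcription factor PU.1. They are 250 bases each on the gene's own strand, from RefSeq on GRCm38.p6. Capitals mark the core of the PU.1 box, the letters GAGGAA, or TTCCTC where it lies on the other strand. The windows are chr3:87357631-87357880 (plus strand) for Cd5l, chrX:96293439-96293688 (minus strand) for Vsig4, chr11:46810549-46810798 (plus strand) for Timd4 and chr6:124304401-124304650 (plus strand) for Cd163.
Cd5l: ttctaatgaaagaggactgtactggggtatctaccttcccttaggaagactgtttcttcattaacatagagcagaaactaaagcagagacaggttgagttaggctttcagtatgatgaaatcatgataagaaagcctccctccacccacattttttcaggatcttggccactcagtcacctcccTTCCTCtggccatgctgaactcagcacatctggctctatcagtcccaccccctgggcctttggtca
Vsig4: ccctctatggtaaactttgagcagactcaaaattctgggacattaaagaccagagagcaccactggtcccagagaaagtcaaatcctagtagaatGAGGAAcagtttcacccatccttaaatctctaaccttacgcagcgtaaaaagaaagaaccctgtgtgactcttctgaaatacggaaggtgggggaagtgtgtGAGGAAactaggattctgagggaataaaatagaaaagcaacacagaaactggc
Timd4: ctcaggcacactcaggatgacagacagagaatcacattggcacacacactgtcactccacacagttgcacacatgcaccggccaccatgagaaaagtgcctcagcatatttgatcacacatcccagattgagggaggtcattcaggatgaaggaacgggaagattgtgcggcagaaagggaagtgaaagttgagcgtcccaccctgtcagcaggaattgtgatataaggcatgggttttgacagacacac
Cd163: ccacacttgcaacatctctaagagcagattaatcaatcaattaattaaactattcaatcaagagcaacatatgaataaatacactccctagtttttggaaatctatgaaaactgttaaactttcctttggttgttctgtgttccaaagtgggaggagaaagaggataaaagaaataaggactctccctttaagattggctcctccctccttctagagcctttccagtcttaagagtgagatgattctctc
Cd5l held 1 match, on the other strand, whose first base lay 66 bases before the start, and Vsig4 held 2 on its own strand, at 155 and 53 bases. Timd4 and Cd163 held none, which says only that these letters are not in these windows. Of the 32 genes 25 were found in the promoter table, with 29 windows because some have more than 1 start, and 16 of the 29 windows held the letters on either strand. The share among all 32851 windows of the same length was 23.3%. Among the called genes 7 were in the table, of which 3, Cd5l, Vsig4 and Plac8, had a match. Of the 18 other genes found there 11 had one, among them Itgam, which was not tested. A match is a description of the sequence and not a measured binding site.

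All recruited markers but Plac8 were scarce in these livers. Per kilobase of exon, the controls had 0.336 CPM per kb of Ccr2, 0.352 of Ly6c2 and 0.163 of Cx3cr1, beside 46.5 of Clec4f. Plac8, at 9.30 CPM per kb, was close to the resident marker Folr2 at 9.22. Of the 5 recruited markers 4 were tested, 1 fell, none rose, and the median log2 fold change was -0.88. Without control 2, 2 were called lower. The data thus held no called rise of a recruited marker at 4 hours, at levels where most of these genes had fewer than 100 reads per library.

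Ccr2, the receptor through which monocytes leave the bone marrow and enter tissue, had 3.04, 1.51, 2.32 and 2.21 CPM in the controls and 1.46, 3.38, 0.961 and 1.34 CPM after sorbate. Sorbate 2 had the highest level of all 8 libraries and sorbate 3 the lowest. Its log2 fold change was -0.34 (SE 0.39, 95% interval -1.20 to 0.51, adjusted p = 0.588), the smallest of the 31 genes.

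Ly6c2, a surface protein of inflammatory monocytes, rested on 5 to 29 reads per library. Its level was 0.797, 0.279, 1.40 and 1.38 CPM in the controls and 0.486, 0.578, 0.229 and 0.426 CPM after sorbate. Controls 1, 3 and 4 lay above all sorbate libraries and control 2 among them. The log2 fold change was -1.16 (SE 0.49, adjusted p = 0.143) and without control 2 it was -1.44 (adjusted p = 0.0169). Reads of Ly6c2 could be shared with its near copy Ly6c1, which endothelial cells express.

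Plac8, a small cysteine-rich protein abundant in monocytes and other white cells, was the recruited marker with the most reads and the only one called. It had 15.1, 6.82, 19.2 and 18.1 CPM in the controls and 4.11, 9.78, 5.26 and 3.35 CPM after sorbate. Only sorbate 2 lay above control 2. Plac8 (ENSMUSG00000029322, chromosome 5, 100553725 to 100572245) fell by 1.39 on the log2 scale (SE 0.37, adjusted p = 0.0341), the largest fold of the 31 genes. The call was lost without any 1 of controls 1, 3 and 4 or sorbate 1, 3 and 4 (highest adjusted p = 0.104).

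Cx3cr1, the fractalkine receptor of patrolling monocytes, had 0.548, 0.447, 1.11 and 0.836 CPM in the controls and 0.449, 0.845, 0.229 and 0.426 CPM after sorbate. The groups overlapped, and the log2 fold change was -0.59 (SE 0.45, adjusted p = 0.407). Itgam, the integrin CD11b of monocytes and neutrophils, was too low for the fit, with 4 to 12 reads per library. It had 0.498, 0.223, 0.338 and 0.541 CPM against 0.336, 0.178, 0.549 and 0.426 CPM, a mean of 0.400 ± 0.147 against 0.372 ± 0.156 CPM (SD, n = 4 each). An exact permutation test of its means over 70 arrangements, two-sided, gave p = 0.8286. At this depth no difference in Itgam was detected.

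Resident and recruited markers were then set side by side within each library. The summed level of the 8 resident markers was 325, 171, 421 and 403 CPM in controls 1 to 4 and 152, 239, 174 and 122 CPM in sorbate 1 to 4. That of the 5 recruited markers was 19.96, 9.27, 24.4 and 23.1 CPM in the controls and 6.84, 14.8, 7.23 and 5.96 CPM after sorbate. Control 3 had the most and sorbate 4 the least of both sums, and control 2 took its place among the sorbate libraries on both sums. The recruited sum was 6.14%, 5.41%, 5.79% and 5.72% of the resident sum in the controls and 4.51%, 6.19%, 4.15% and 4.87% with sorbate, a mean of 5.77% ± 0.3002 against 4.93% ± 0.887 (SD, n = 4 each). These shares overlapped only through sorbate 2. Plac8 made up most of the recruited sum, and without it the share was 1.35% ± 0.140 in the controls and 1.79% ± 0.463 with sorbate, with sorbate 3 at 1.13% below all controls and the other 3 sorbate libraries above them. The order of the groups therefore turned with 1 gene, and no p is given for these sums because the genes were chosen with earlier results known.

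**Figure D3:**
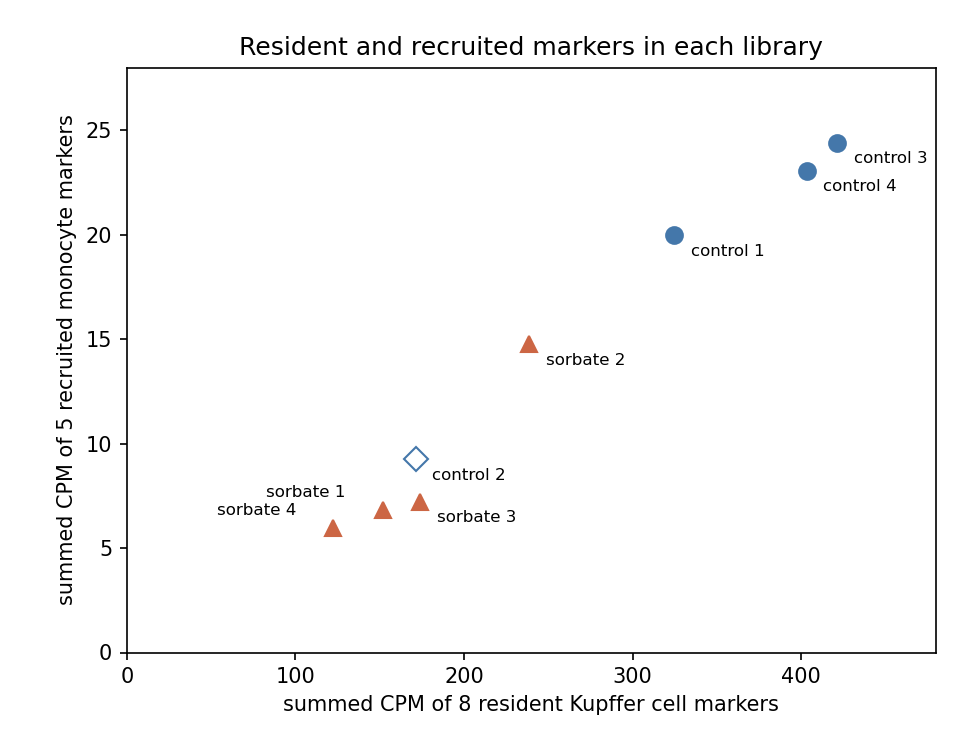
Summed CPM of the 5 recruited monocyte markers (vertical) against summed CPM of the 8 resident Kupffer cell markers (horizontal) in each library. Circles are controls 1, 3 and 4, the diamond is control 2 and triangles are the sorbate libraries. Controls 1, 3 and 4 lie at the upper right, and control 2, at 171 and 9.27 CPM, lies among the sorbate libraries.

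The macrophage lineage genes are shared by resident and recruited cells. Of the 5 tested, 2 fell (median -0.81, 6.3% of all genes called lower), and all 5 were called without control 2 (14.1%). Mpeg1, which encodes the pore-forming perforin-2 of phagocytes, had 137, 119, 132 and 135 CPM in the controls and 88.6, 91.7, 70.5 and 64.7 CPM after sorbate. The groups did not overlap, and control 2 lay with the other controls. Mpeg1 (ENSMUSG00000046805, chromosome 19, 12460779 to 12465283) fell by 0.73 on the log2 scale (SE 0.13, adjusted p = 0.00754). It was the only one of the 31 genes called in all alternatives, its adjusted p reaching at most 0.0305 when 1 library was left out and 0.0283 with a surrogate variable in the fit.

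Csf1r, the receptor for the growth factors CSF1 and IL-34 on which macrophages depend, had 52.9, 28.5, 60.4 and 61.0 CPM in the controls and 24.3, 37.0, 29.8 and 20.9 CPM after sorbate. Control 2 lay inside the sorbate range. Csf1r fell by 0.86 on the log2 scale (SE 0.24, adjusted p = 0.0444). The call was lost without any 1 of controls 1, 3 and 4 or sorbate 1, 3 and 4 (highest adjusted p = 0.127). Its exons share 873 bases with Hmgxb3 on the opposite strand. Adgre1, the F4/80 antigen, had 16.2, 7.82, 25.2 and 23.4 CPM against 9.46, 13.2, 9.10 and 6.15 CPM (-0.93 on the log2 scale, SE 0.33, adjusted p = 0.0883). Cd68, a lysosomal membrane protein of phagocytes, had 6.47, 4.02, 9.81 and 8.71 CPM against 3.59, 5.11, 4.85 and 3.23 CPM (-0.79 on the log2 scale, SE 0.27, adjusted p = 0.0821). In both, controls 1, 3 and 4 lay above every sorbate library and control 2 did not. Aif1, the actin-binding protein IBA1, differed by -0.81 on the log2 scale and did not pass (SE 0.30, adjusted p = 0.103).

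Fc receptors bind antibody-coated particles and signal through adaptors with activating motifs. Of these 5 genes 1 fell (median -1.08), and 5 were called without control 2. Tyrobp, the adaptor DAP12 of several myeloid receptors, had 14.8, 9.94, 19.4 and 23.3 CPM in the controls and 6.28, 10.8, 7.27 and 6.15 CPM after sorbate. Only sorbate 2 overlapped, with control 2. Tyrobp fell by 1.14 on the log2 scale (SE 0.27, adjusted p = 0.0211), and the adjusted p rose to as much as 0.0687 when any 1 of controls 3 and 4 or sorbate 1, 3 and 4 was left out. Fcer1g, the gamma chain that activating Fc receptors share, had 11.4, 5.53, 14.8 and 15.1 CPM against 5.83, 6.71, 7.91 and 5.23 CPM (-0.86 on the log2 scale, SE 0.28, adjusted p = 0.066). Control 2 lay inside the sorbate range.

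The 3 receptors for immunoglobulin G differed in which sorbate libraries lay above control 2: sorbate 2 and 3 for Fcgr3, sorbate 1, 2 and 3 for Fcgr4, and sorbate 1 and 2 for Fcgr1. Fcgr3 had 12.8, 4.41, 17.6 and 15.9 CPM in the controls and 3.62, 7.87, 6.04 and 3.89 CPM after sorbate (-1.24 on the log2 scale, SE 0.38, adjusted p = 0.0588). Fcgr4 had 7.82, 3.18, 11.02 and 9.74 CPM against 3.59, 5.29, 3.89 and 2.19 CPM (-1.08 on the log2 scale, SE 0.36, adjusted p = 0.0735). Fcgr1, the high-affinity receptor, differed by -0.88 on the log2 scale (SE 0.39, adjusted p = 0.162). In all 3, controls 1, 3 and 4 lay above every sorbate library and control 2 within their range, and none passed the test with 8 libraries. These receptors have related sequences, so reads could be shared among them.

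Of the 3 scavenger and recognition receptors 1 fell (median -0.73), and 3 were called without control 2. Msr1, the class A scavenger receptor that takes up modified lipoproteins, had 13.04, 8.71, 16.8 and 17.3 CPM in the controls and 6.76, 7.33, 6.72 and 4.56 CPM after sorbate. The groups did not overlap. Msr1 (ENSMUSG00000025044, chromosome 8, 39581685 to 39642673) fell by 1.13 on the log2 scale (SE 0.23, adjusted p = 0.0113). Its call held when any 1 library was left out (highest adjusted p = 0.0422) and was lost with a surrogate variable in the fit (adjusted p = 0.0578).

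Siglec1, a sialic acid receptor that binds coated pathogens, had 11.3, 7.49, 16.0 and 14.3 CPM in the controls and 6.69, 10.2, 5.90 and 6.75 CPM after sorbate (-0.73 on the log2 scale, SE 0.24, adjusted p = 0.0739). Sirpa, the receptor for the CD47 signal that restrains engulfment, had 16.1, 11.1, 15.2 and 19.5 CPM against 9.42, 13.3, 11.7 and 8.15 CPM (-0.54 on the log2 scale, SE 0.20, adjusted p = 0.0964). In both genes control 2 lay within the sorbate range and the other controls above it.

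The lysosomal, oxidative and broad myeloid genes are the least specific for macrophages. None of the 6 was called with 8 libraries by edgeR's quasi-likelihood test (4 had an unadjusted p under 0.05, 3 were called by DESeq2 and 5 by limma-voom with quality weights, and the median was -0.77), and 5 were called without control 2. Lyz2, the lysozyme of phagocytes, had 43.0, 36.9, 67.7 and 69.4 CPM in the controls and 38.1, 51.6, 36.0 and 31.9 CPM after sorbate (-0.46 on the log2 scale, SE 0.22, adjusted p = 0.193). Sorbate 2 lay above controls 1 and 2. Ctss, the lysosomal protease cathepsin S, had 37.5, 24.8, 56.7 and 50.8 CPM against 18.3, 32.5, 24.3 and 14.7 CPM (-0.92 on the log2 scale, SE 0.28, adjusted p = 0.0573).

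Laptm5, a lysosomal membrane protein of blood cells, had 17.2, 6.65, 15.5 and 21.3 CPM in the controls and 7.33, 8.85, 9.10 and 5.36 CPM after sorbate (-0.98 on the log2 scale, SE 0.30, adjusted p = 0.0582). Cybb, the catalytic subunit of the phagocyte NADPH oxidase, had 14.6, 6.82, 15.8 and 15.4 CPM against 8.78, 8.09, 7.87 and 6.57 CPM (-0.75 on the log2 scale, SE 0.24, adjusted p = 0.0639). In both, the sorbate libraries lay close together below controls 1, 3 and 4, with control 2 among them. Slc11a1, the divalent metal transporter NRAMP1, differed by -0.79 on the log2 scale (SE 0.31, adjusted p = 0.119). Cd52, a small surface glycoprotein of leukocytes, by -0.46 (SE 0.32, adjusted p = 0.362).

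Other genes of Kupffer cells, from a list of 20 that shares none with the 32, gave 5 lower and 1 higher among 19 tested (median -0.52), and 12 lower without control 2. Wfdc17 fell by 1.44 on the log2 scale (adjusted p = 0.0247) and C1qc, a chain of complement C1q, by 1.04 (adjusted p = 0.0401), both called in the same direction without control 2 (-1.68 and -1.26). With 1 library left out at a time their adjusted p reached 0.0785 and 0.12, so that both calls could be lost. Slc40a1, ferroportin, the iron exporter of macrophages and hepatocytes, went the other way, with 50.8, 80.2, 73.8 and 76.8 CPM in the controls and 109, 122, 148 and 147 CPM after sorbate. The groups did not overlap. It rose by 0.90 on the log2 scale (SE 0.16, adjusted p = 0.00732), and the call held with any 1 library left out (highest adjusted p = 0.0283).

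Of 13 genes listed for CSF1 receptor ligands and myeloid receptor signalling, 2 fell and 0 rose (median -0.59). Neither of the 2 was a ligand of the CSF1 receptor. Without control 2 the number called lower was 6, with DESeq2 it was 5, and on leaving out any other library it was 0 or 1. The kinase Fgr fell by 1.24 on the log2 scale (adjusted p = 0.026) and the cytokine receptor subunit Csf2rb fell by 1.15 (adjusted p = 0.0281). Csf1, the ligand, had a mean of 6.90 CPM in the controls and 8.27 CPM after sorbate (log2 fold change 0.26, adjusted p = 0.451). Il34, the other ligand, had 1.99 and 1.19 CPM (log2 fold change -0.75, adjusted p = 0.188). Of 12 tested transcription factors of macrophages 1 fell and 2 rose (median 0.12), and 4 were called lower and 4 higher without control 2. Tfec, a factor nearly restricted to macrophages, fell by 1.34 (adjusted p = 0.0374), while Bach1, a haem-sensing repressor, rose by 0.88 (adjusted p = 0.0328) and Cebpa by 0.66 (adjusted p = 0.043). Cebpa is also a main factor of hepatocytes. All 5 calls were lost on leaving out single libraries, with highest adjusted p-values of 0.0771 for Fgr, 0.0871 for Csf2rb, 0.122 for Tfec, 0.0983 for Bach1 and 0.131 for Cebpa. Spi1, which encodes PU.1, had a mean of 4.79 CPM in the controls and 2.53 CPM after sorbate and did not pass (log2 fold change -0.92, adjusted p = 0.0866).

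Recruitment signals and monocyte genes beyond the 5 markers were called only in part. Of 12 monocyte chemokines and receptors 5 were tested and none rose (median -0.57). The summed level of the 12 was 274 ± 44.6 CPM in the controls and 298 ± 33.2 CPM after sorbate (SD, n = 4 each), 109% of the control mean. Ccl6 and Ccl2, given next, made up a small part of that sum. Ccl6, one of these chemokines, fell by 2.21 on the log2 scale (adjusted p = 0.0238). Ccl6 had 18.97, 3.74, 26.4 and 37.6 CPM in the controls and 3.70, 6.80, 4.67 and 3.59 CPM after sorbate. Ccl2, the main ligand of CCR2, was low in both groups, at 0.752 and 0.498 CPM (log2 fold change -0.57, adjusted p = 0.478). Of 20 further monocyte genes 13 were tested and 3 fell (median -0.57): Hp by 1.87 (adjusted p = 0.0154), Ms4a6c, a membrane protein of monocytes and macrophages, by 1.51 (adjusted p = 0.0354) and Ifitm3 by 0.45 (adjusted p = 0.0366). Hp encodes haptoglobin, which hepatocytes make in the acute phase, and Ifitm3 is expressed in many cell types. Without control 2, 7 of the 13 were called lower and 1 higher. The gene called higher was Nr4a1, an early-response factor needed for patrolling monocytes and induced in many cell types, with 1.29, 3.69, 0.629 and 0.935 CPM in the controls and 2.24, 25.4, 8.87 and 2.68 CPM after sorbate. Sorbate 2 and 3 lay above all controls, and sorbate 1 and 4 below control 2. Its log2 fold change, 2.61 with 8 libraries, was the largest of the list in either direction (SE 0.80, adjusted p = 0.0571). The adjusted p was 0.0103 without control 2, 0.0364 with DESeq2 and 0.0479 with library size alone, and it reached 0.164 on leaving out 1 library. With 1 library left out at a time the adjusted p reached 0.0759 for Ccl6, 0.0527 for Hp, 0.104 for Ms4a6c and 0.116 for Ifitm3.

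Lipid-associated macrophage genes, which foamy macrophages express, had 3 falls among 9 tested (median -0.62), and 4 were called lower without control 2. Fabp5, a fatty acid carrier, had 536, 398, 713 and 623 CPM in the controls and 69.0, 67.2, 48.0 and 30.6 CPM after sorbate, and fell by 3.40 on the log2 scale (SE 0.28, adjusted p = 0.000312). Cd9, a tetraspanin, fell by 1.63 (adjusted p = 0.00768) and Spp1, osteopontin, by 2.17 (adjusted p = 0.00801). All 3 calls held with any 1 library left out. These 3 genes are also expressed by other liver cells, and Trem2, the receptor that defines this macrophage state, had 1.00 and 0.367 CPM and did not pass with 8 libraries (adjusted p = 0.158, and 0.0199 without control 2).

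Some markers of other cell types were called lower in the same libraries, as were 6.3% of all genes. Of 14 neutrophil markers 3 were tested and 2 fell, S100a9 by 4.92 on the log2 scale (adjusted p = 0.0112) and Csf3r by 1.40 (adjusted p = 0.0417). The summed level of the 14 was 28.6, 2.35, 17.4 and 31.9 CPM in the controls and 2.54, 3.73, 1.92 and 1.28 CPM after sorbate, with control 2 inside the sorbate range. Ngp, Camp and Ly6g were among the markers with too few reads to be tested. Their mean was 0 CPM after sorbate, and no fall is read from it. Of the 15 markers of sinusoidal endothelial cells, the vessel lining on which Kupffer cells sit, 1 fell (Clec4g by 0.95, adjusted p = 0.0329). That is 6.67% of the list, near the share of all genes. Without control 2, 12 were called lower, as were 14.1% of all genes. The sum of the 15 was 446, 217, 397 and 455 CPM in the controls and 244, 297, 298 and 271 CPM after sorbate. Control 2 was thus the lowest of all 8 libraries, and it was the lowest control for all 15. Of 5 tested red cell genes 4 fell (Hbb-bt by 2.18, adjusted p = 0.0131, Hbb-bs by 2.12, adjusted p = 0.0164, and Hba-a2 by 1.95, adjusted p = 0.0314), with sums of 530, 331, 807 and 1379 CPM against 286, 373, 333 and 251 CPM. The haemoglobin copies may share reads. The fifth red cell gene, Alas2, which starts haem synthesis in red cells, had a log2 fold change of 0.37 (adjusted p = 0.0795, and 0.0128 without control 2). With all 8 libraries Alas2 was called higher by DESeq2, with library size alone and by limma-voom with quality weights. It was not called with no filter, with the surrogate variable or on leaving out any other library. The calls of S100a9 and Hbb-bt held with any 1 library left out, whereas the adjusted p reached 0.12 for Csf3r, 0.0969 for Clec4g, 0.0573 for Hbb-bs and 0.0954 for Hba-a2. The part of blood and vessel content in the macrophage results was not tested.

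Of 6 pan-leukocyte genes 3 fell: Ptprc, the common antigen CD45, by 0.96 (adjusted p = 0.0247), Cd53 by 1.15 (adjusted p = 0.0327) and Rac2 by 1.07 (adjusted p = 0.0473). Lcp1, the actin-bundling protein L-plastin, differed in the other direction, with 70.05, 72.1, 61.5 and 56.8 CPM in the controls and 79.5, 82.6, 80.05 and 86.1 CPM after sorbate. Its groups did not overlap, and its log2 fold change was 0.33 (adjusted p = 0.0646 as reported, 0.0289 with DESeq2, 0.0322 with library size alone and 0.00932 with quality weights). Without control 2 the test called 5 of the 6 lower and Lcp1 higher (adjusted p = 0.0165). The summed level of the 6 genes after sorbate was 100.1% of the control mean. Lcp1 made up most of that sum in every library, so the sum does not show the course of the other genes. None of 6 tested dendritic cell genes was called by edgeR's quasi-likelihood test, none of them had an unadjusted p under 0.05, and their median was -0.01. H2-Aa, an MHC class II chain, had a mean of 11.8 and 13.6 CPM (log2 fold change 0.20, adjusted p = 0.644). Among B cell markers Ighm fell by 1.47 (adjusted p = 0.0275), 1 of 3 tested. For T and NK cells 3 of 13 markers were tested and none was called or had an unadjusted p under 0.05 (median 0.04), with Cd4 at 2.56 and 2.47 CPM (adjusted p = 0.959). None of 13 stellate cell markers was called or had an unadjusted p under 0.05 (median 0.06), with Dcn at 86.7 and 81.2 CPM (adjusted p = 0.776). DESeq2 also called 0 genes of these 3 lists, and limma-voom with quality weights called 1, a stellate cell marker. Without control 2 the stellate cell marker Hgf, a growth factor for hepatocytes, was called lower (log2 fold change -0.74, adjusted p = 0.0384). Of 5 tested cholangiocyte markers Sox9 fell by 1.59 (adjusted p = 0.0186), while the other 4 had log2 fold changes above 0, from 0.06 for Epcam to 1.03 for Krt19, and did not pass. The summed level of the cholangiocyte list was 96.5% of the control mean. Of 9 hepatocyte genes Cyp2e1 rose by 0.87 (adjusted p = 0.00776) and Fgb, a fibrinogen chain of the acute phase, fell by 1.74 (adjusted p = 0.00302), with a median of 0.00. Without control 2 Cps1, the first enzyme of the urea cycle, was called higher as well (log2 fold change 0.74, adjusted p = 0.0186). The calls of Cyp2e1 and Fgb held with any 1 library left out, and the adjusted p reached 0.0775 for Ptprc, 0.105 for Cd53, 0.131 for Rac2, 0.0898 for Ighm and 0.0601 for Sox9.

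**Figure D4:**
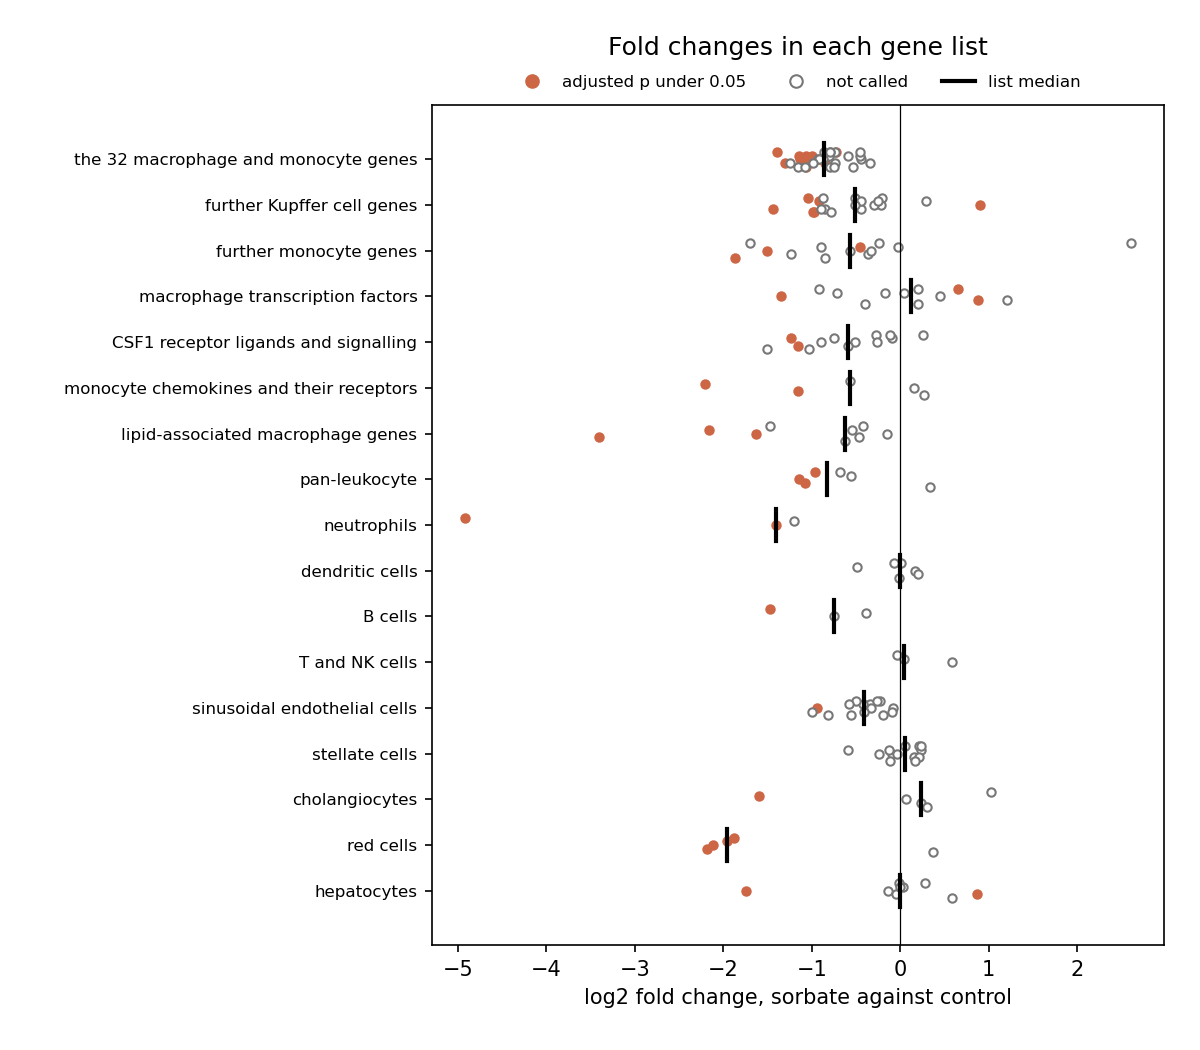
Log2 fold change, sorbate against water, of every tested gene in the 32 macrophage genes and in 16 further lists of macrophage pathways and liver cell types. Filled points passed the adjusted threshold, open points did not, and the bar is the median of the list. The macrophage genes lie between -1.39 and -0.34 with a median of -0.86, and dendritic, T and NK, stellate and hepatocyte genes have medians between -0.01 and 0.06.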

How the data were processed

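Whole-liver poly(A) RNA was sequenced as single reads, per the labels' protocols. The deposited values are raw counts of reads per gene. FastQC, HISAT2 2.1.0, Subread, edgeR and GRCm38 are named in the submitters' processing notes; for the annotation and use of strand, the sources used here give nothing. Each column was assigned through the sample title it carries; 4 per-sample columns carry no such title and stayed out. No 2 replicates were alike within sampling noise (chi-square per gene from 25.1 up to 241).

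From the counts, edgeR 4.0.16 (R 4.3.3) tested all genes kept by filterByExpr (minimum count 10), with TMM factors, the quasi-likelihood test, no covariate, and Benjamini-Hochberg adjustment at 0.05. SE and 95% intervals come from the unshrunk coefficient and the F statistic. CPM use TMM-scaled library sizes. CPM per kb use exon lengths of GENCODE vM21. The script was tested on simulated data. Alternatives were library size alone, no filter, DESeq2 1.42.0, limma-voom with quality weights (limma 3.58.1), 1 surrogate variable (sva 3.50.0), a threshold of 0.1 and leaving out each library.

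Members and lists were chosen with earlier results of these data known. All 32 genes are accounted for. Library values are given for called members, the 4 most abundant of each role, Clec4f, Timd4, Ccr2 and Ly6c2. Each further list gives up to 3 called genes of lowest p, otherwise its most abundant gene. Genes named beyond this are Marco, Spic, Itgam, Csf1, Il34, Spi1, Ccl2 and Trem2, with Ngp, Camp and Ly6g, and, chosen after their values were seen, Nr4a1, Lcp1, Alas2, Hgf, Cps1, Epcam and Krt19. A result of the chemokine list is not reported here.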

Additional observations from a re-analysis of the deposited data

Results flagged for a closer look

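Cd163 in control 2 stood apart from the other controls: its level was 7.65 CPM, where the other 3 controls had 22.4 to 23.8 CPM, so that the gap to its nearest neighbour was 0.915 of the group's range (above Dixon's 95% critical value for 4 samples). Cybb in control 2 did so as well, with 6.82 CPM against 14.6 to 15.8 CPM in the other controls (0.869 of the range). These were 2 of 64 groups of 4 values examined, and chance gives such a value in about 1 of 20 groups. Both genes were nearly equal in controls 1, 3 and 4 (SD relative to the mean 3.06% and 3.93%), and in control 2 both lay within the sorbate range.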

How the results depend on the processing

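All 31 tested macrophage genes kept a log2 fold change below 0 under every alternative except the surrogate variable, where Spic was 0.58, Ccr2 0.16 and Cd52 0.11. That variable runs partly with the groups: control 2 had 0.478, the sorbate group 0.0604 to 0.289 and controls 1, 3 and 4 -0.512 to -0.360. The number of the 31 called lower was 18 with no filter, 20 with DESeq2, 26 with quality weights, 1 with the surrogate variable, 20 at a threshold of 0.1, and 2 to 26 on leaving out 1 library (7 with library size alone), and 0 were called higher under any of these. Resident markers called lower were 3 with library size alone, 0 with the surrogate variable and 0 to 6 on leaving out 1 library. Recruited markers were 2 with quality weights, 0 with the surrogate variable and 0 to 2 on leaving out 1 library. The causes were not tested.

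Over all genes, called lower and higher were 550 and 1300 with library size alone (838 and 818 as reported), 1944 and 1968 with quality weights, 301 and 322 with the surrogate variable, 1414 and 1337 at a threshold of 0.1, and 357 to 1915 lower and 332 to 2053 higher on leaving out 1 library. With library size alone the median over all genes was 0.11 on the log2 scale in place of -0.02, and that over the 31 genes -0.73 in place of -0.86. The difference in mean CPM of Itgam, -0.0280 as reported, was 0.0076 on library sizes alone and -0.0869 to 0.0369 on leaving out 1 library (0.0046 without control 1, 0.0190 without control 4, 0.0369 without sorbate 2). No paired analysis was possible because the replicate numbers were given in accession order and pair nothing. Depth limits Ly6c2, Cx3cr1, Itgam and Spic most, with 4 to 63 reads per library.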

Other observations

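Levels relative to Clec4f within each library, computed after the values were seen, remove any scale that the macrophage genes of a library share. Cd5l stood at 122%, 108%, 114% and 121% of Clec4f in controls 1 to 4 and at 96.8%, 91.6%, 96.6% and 87.1% in sorbate 1 to 4. Plac8 stood at 13.6%, 11.01%, 12.9% and 13.2% in the controls and at 7.02%, 9.90%, 7.70% and 6.72% with sorbate. For Plac8 control 2 was the lowest control and lay nearer to sorbate 2 than to any other control. On this scale control 2 lay above every sorbate library for both genes, and the groups did not overlap. The same held for Tyrobp (13.3%, 16.1%, 13.01% and 16.9% against 10.7%, 10.98%, 10.6% and 12.3%) and Folr2 (12.03%, 12.7%, 13.2% and 11.7% against 11.5%, 10.1%, 10.4% and 9.40%). It did not hold for every gene. For Cd163 control 2 stood at 12.4%, within the sorbate range of 10.1% to 12.6%, and for Fcgr3 at 7.13%, within 6.19% to 8.84%. For Mpeg1 it stood at 192%, above the other controls at 88.2% to 124%, and the groups overlapped.

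The mean log2 ratio to Clec4f differed by -0.71 for Plac8, -0.40 for Tyrobp, -0.32 for Cd5l and -0.27 for Folr2, each with an exact permutation p of 0.0286, the smallest that 70 arrangements can give. They are named because they were the only 4 of the 31 at that p. Groups that do not overlap always reach it, so it only restates the lack of overlap. Of the 31 ratios computed 22 were lower and 9 higher with sorbate (median -0.15), and with adjustment over the 31 no ratio passed (lowest adjusted p = 0.221). The difference was -0.03 for Mpeg1, 0.28 for Lyz2, 0.24 for Ccr2 and 0.50 for Spic, and it did not pass for any of them.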
